A study of Mus musculus with 12 samples.

Results

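The genes of glycogen synthesis and breakdown were followed in the livers of male C57Bl/6 mice that lacked or carried the deacetylase gene Hdac6 and were given dexamethasone or vehicle. The 9 genes were Ppp1r3b, Ppp1r3c, Ppp1r3g, Gys2, Pygl, Gbe1, Ugp2, Phka2 and Gsk3b, looked up by symbol among 19937 genes with a probe set of 1 gene symbol. They were chosen with earlier results of these data known. Each gene had 1 probe set, and all 9 were among the 17904 genes that passed a filter on low signal. The groups were knockout mice (HDAC6 Y/-) given dexamethasone, knockout mice given vehicle, wild-type mice given dexamethasone and wild-type mice given vehicle, with 3 animals and 3 arrays in each. Dexamethasone, a synthetic glucocorticoid, was injected intraperitoneally at 1 mg/kg over 3 weeks, and all mice were fed freely under a constant light cycle. Total RNA of snap-frozen liver was hybridised to Affymetrix whole-transcript arrays. Ages, the way the knockout was made and the hour of dissection are not given in the sources used here.

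Glycogen is the branched glucose store of the liver. Ugp2 makes UDP-glucose, Gys2 (the liver glycogen synthase) adds it to the chain, and Gbe1 introduces the branches. Pygl, the liver glycogen phosphorylase, releases glucose 1-phosphate, and it is switched on by phosphorylase kinase, of which Phka2 is the liver regulatory alpha subunit. Gsk3b is a kinase that phosphorylates and restrains glycogen synthase. Ppp1r3b, Ppp1r3c (also called PTG) and Ppp1r3g are targeting subunits that bring protein phosphatase 1 to the glycogen particle, where it turns the synthase on and phosphorylase off. Glucocorticoids take their name from their action on glucose and are known to increase liver glycogen.

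The knockout label was checked first on Hdac6 itself. Its log2 signal was 3.75 ± 0.14 in knockout dexamethasone livers and 5.99 ± 0.17 in wild-type dexamethasone livers (SD, n = 3 each), and 4.12 ± 0.26 in knockout vehicle livers against 6.20 ± 0.20 in wild-type vehicle livers (SD, n = 3 each). The groups did not overlap under either treatment. Hepatocyte markers had a mean log2 level of 12.31 to 12.43 on every array over the 8 of 10 listed markers measured. Hnf4a ran from 9.61 to 10.38, and the others lay at or above percentile 99.8 of every array. Under dexamethasone 1 of 8 was called higher in knockout, where 4.38% of all genes were, and 0 of 8 were called in wild type. Transcripts of the exocrine pancreas stood out on 4 arrays, namely knockout vehicle replicate 3, wild-type dexamethasone replicate 3 and wild-type vehicle replicates 1 and 2. Over 15 measured markers their mean log2 level was 8.38, 7.55, 9.70 and 9.46 on those arrays, against 3.08 to 3.40 on the other 8, and 15 of 15 markers were higher on the 4 arrays. Cpa1 averaged 10.75 against 3.23, and Ctrb1 averaged 10.48 against 3.62. Results for the glycogen genes are therefore also given for the other 8 arrays. Skeletal muscle markers were also higher on wild-type vehicle replicates 1 and 2, at mean log2 levels of 4.15 and 3.81. Both arrays are outside those 8. On every other array the muscle markers lay between 3.05 and 3.39. The part of muscle transcripts in the results below was not tested. Under dexamethasone 0 of 12 macrophage markers were called in knockout and 10 of 12 fell in wild type, where 6.95% of all genes fell. The difference between the dexamethasone changes of the genotypes, knockout minus wild type, was called for 0 of 12 and for 0% of all genes. Its median over the 12 markers was 1.02 on the log2 scale. Of the liver endothelial markers 4 of 9 fell and 1 rose in knockout, and 5 fell and 1 rose in wild type. Of the stellate markers 1 of 8 fell in knockout and 2 of 8 in wild type. Over all genes 3.92% fell and 4.38% rose in knockout, and 6.95% fell and 4.57% rose in wild type. The part of these cell types in the results below was not tested. Whole liver was measured, so fewer cells of a type and less RNA per cell cannot be told apart.

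Promoter sequence is shown as a reference for 3 members that differ in their response and hold a motif match. They are Ppp1r3c, the most responsive member, Phka2, called lower under dexamethasone only on average over genotypes, and Ppp1r3g, which was not called. RefSeq promoters of build GRCm38.p6 matched 7 of the 9 members (8 promoters, since Ugp2 has a pair), and the 250 bases before the start are printed 5′ to 3′ on the gene's strand. Ppp1r3b and Gys2 had no entry. Capitals mark the motif match of each.
Ppp1r3c (chr19:36736605-36736854, minus strand): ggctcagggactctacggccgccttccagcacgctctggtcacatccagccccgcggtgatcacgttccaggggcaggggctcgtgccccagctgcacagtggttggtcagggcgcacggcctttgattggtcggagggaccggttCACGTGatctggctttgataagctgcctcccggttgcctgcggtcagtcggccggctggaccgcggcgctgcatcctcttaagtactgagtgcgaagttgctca
Phka2 (chrX:160501912-160502161, plus strand): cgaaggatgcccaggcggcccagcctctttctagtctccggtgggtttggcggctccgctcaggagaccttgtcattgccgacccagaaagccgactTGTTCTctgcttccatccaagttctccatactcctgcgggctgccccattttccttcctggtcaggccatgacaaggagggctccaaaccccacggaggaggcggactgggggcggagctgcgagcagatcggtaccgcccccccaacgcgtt
Ppp1r3g (chr13:35967656-35967905, plus strand): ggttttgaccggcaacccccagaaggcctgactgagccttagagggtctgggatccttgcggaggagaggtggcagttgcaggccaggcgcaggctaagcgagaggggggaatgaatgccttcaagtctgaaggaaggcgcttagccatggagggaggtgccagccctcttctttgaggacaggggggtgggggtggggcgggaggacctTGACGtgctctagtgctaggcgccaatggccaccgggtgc

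In the Ppp1r3c promoter the capitals are an E-box (CACGTG) lying 104 to 99 bases before the start, which 6.02% of the 32851 promoters in the table also hold. In the Phka2 promoter they are a single glucocorticoid receptor hexamer (AGAACA or, as here, its other strand TGTTCT), 153 to 148 bases before the start, found in 16.1% of all promoters. In the Ppp1r3g promoter they are the core of a cAMP response element (TGACG, or CGTCA on the other strand), 40 to 36 bases before the start, present in 17.8% of all promoters and also in that of Pygl. The hexamer AGAACA is part of the full glucocorticoid response element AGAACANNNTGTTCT, and TGACG is part of TGACGTCA. Both strands were searched for each. Of the 8 member promoters 1 held the E-box, 1 the hexamer and 2 the TGACG core. Those of Gbe1, Gsk3b and Ugp2 held no match. The full glucocorticoid element was in 0 of the 8 member promoters and in 0.00913% of all promoters. TGACGTCA (1.55% of all promoters), the C/EBP site TTGCGCAA (0.164%) and the forkhead sites TGTTTAC (3.17%) and TATTTAC (2.73%) were also in 0 of the 8. These matches describe letters in a short window, and binding to them was not tested. The printed promoters had 64.4% GC (Ppp1r3c), 62.8% GC (Phka2) and 63.2% GC (Ppp1r3g), against a median of 52.4% over the table. The member promoters not printed ran from 48.8% (Gbe1) to 73.6% (Ugp2).

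The first question was how dexamethasone changed the glycogen genes in each genotype. Targeting subunits of protein phosphatase 1 carried the largest changes. Ppp1r3c rose 8.3-fold in knockout livers and 7.23-fold in wild-type livers, and Ppp1r3b rose 2.78-fold and 2.89-fold. Gys2 rose 1.47-fold in wild-type livers. At an adjusted p under 0.05, 2 of 9 members were higher and 0 lower in knockout livers, where 4.38% of all tested genes were higher and 3.92% lower. In wild-type livers 3 of 9 were higher and 0 lower, where 4.57% of all tested genes were higher and 6.95% lower. The median log2 change of the 9 members was 0.05 in knockout and 0.15 in wild type, against -0.01 and 0.01 over all genes tested. Because the members were chosen with earlier results of these data known, these counts and medians are no test of the pathway. The knockout and wild-type comparisons use separate arrays. All levels are deposited log2 signals, and every change is dexamethasone minus vehicle on the log2 scale.

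**Figure D1:**
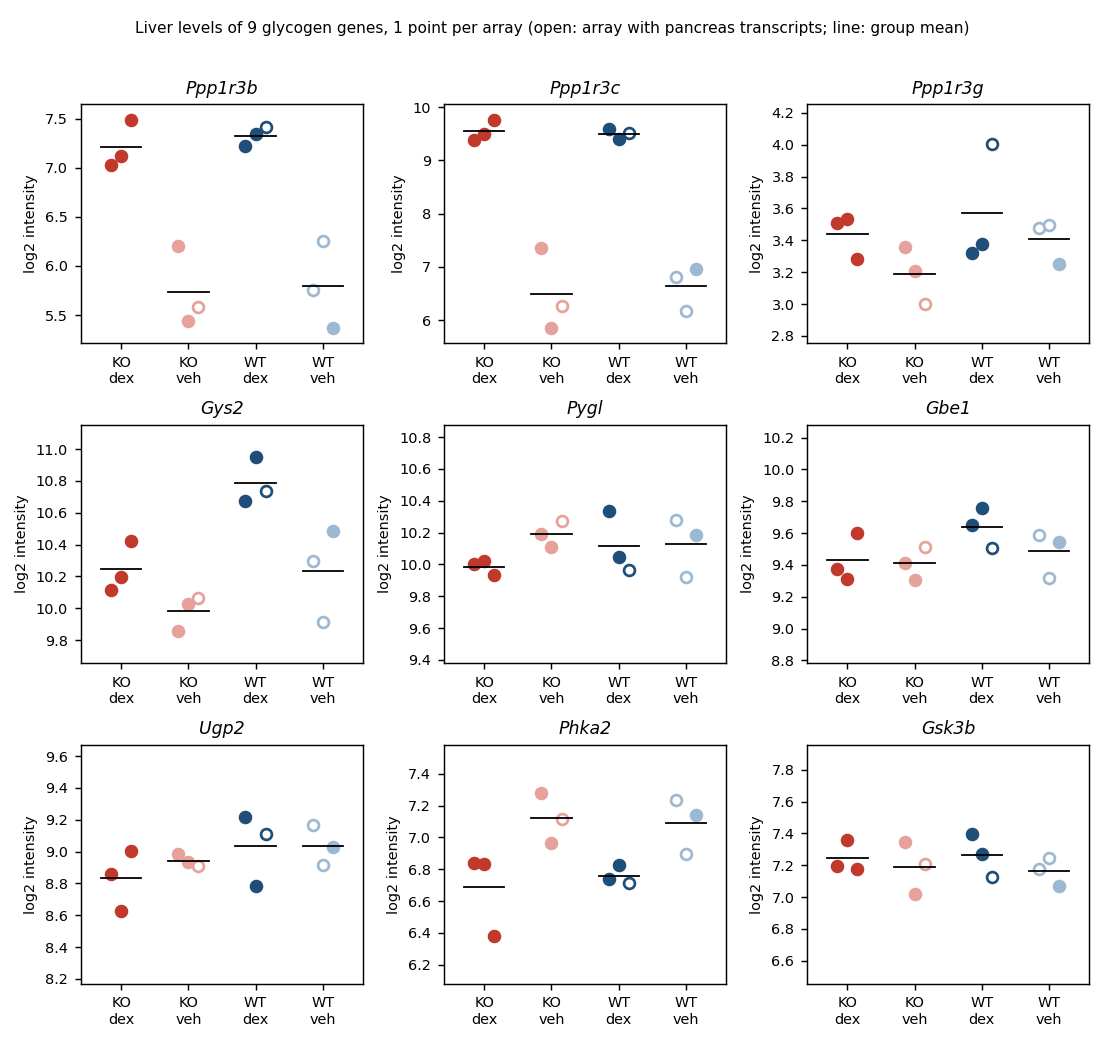
Log2 signal of each glycogen gene on each of the 12 arrays, with 1 panel per gene, 1 point per array and a bar at each group mean. The panels have their own vertical ranges. Ppp1r3c sits between 9.38 and 9.76 in the 6 dexamethasone livers and between 5.86 and 7.35 in the 6 vehicle livers, while Gsk3b and Ugp2 overlap across all groups.

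Ppp1r3c had log2 levels of 9.38, 9.50 and 9.76 in knockout dexamethasone livers, against 7.35, 5.86 and 6.27 in knockout vehicle livers. In wild-type dexamethasone livers it had 9.58, 9.40 and 9.51, against 6.80, 6.18 and 6.96 in wild-type vehicle livers. Every treated liver was above every vehicle liver, and the treated livers lay closer together, with SDs of 0.19 in knockout and 0.09 in wild type against 0.77 and 0.41 under vehicle. The log2 change was 3.05 ± 0.30 (SE, 95% interval 5.32- to 12.9-fold, adjusted p = 2.35e-05) in knockout. In wild type it was 2.85 ± 0.30 (4.63- to 11.3-fold, adjusted p = 4.33e-05). By size of increase Ppp1r3c ranked 26 of 17904 genes in each genotype.

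Ppp1r3b, the targeting subunit that predominates in liver, had log2 levels of 7.03, 7.12 and 7.49 in knockout dexamethasone livers, against 6.20, 5.44 and 5.58 in knockout vehicle livers. Wild-type livers given dexamethasone had 7.22, 7.34 and 7.41, against 5.76, 6.25 and 5.37 in wild-type vehicle livers. The lowest treated liver was above the highest vehicle liver in both genotypes. The log2 change was 1.47 ± 0.22 (SE, adjusted p = 7.87e-04) in knockout, rank 127 by size of increase, and 1.53 ± 0.22 (SE, adjusted p = 5.87e-04) in wild type, rank 117.

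Ppp1r3g, a targeting subunit linked to the response to feeding in mouse liver, had log2 levels of 3.51, 3.53 and 3.28 in knockout dexamethasone livers, against 3.36, 3.21 and 3.00 in knockout vehicle livers. In wild-type dexamethasone livers it had 3.32, 3.38 and 4.0, against 3.48, 3.50 and 3.25 in wild-type vehicle livers. These signals lay close to the medians of the arrays (3.13 to 3.24), and the groups overlapped in both genotypes. The changes of 0.25 ± 0.16 in knockout (adjusted p = 0.502) and 0.16 ± 0.16 in wild type (adjusted p = 0.631) did not pass the test. The highest value, 4.0, came from a wild-type dexamethasone liver with pancreas transcripts.

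Among the enzymes of synthesis, Gys2 had log2 levels of 10.11, 10.19 and 10.42 in knockout dexamethasone livers, against 9.86, 10.03 and 10.06 in knockout vehicle livers. Its levels in wild-type dexamethasone livers were 10.68, 10.95 and 10.74, against 10.30, 9.91 and 10.48 in wild-type vehicle livers. Treated and vehicle livers did not overlap in either genotype, though by a narrow margin in knockout. The change was 0.56 ± 0.14 (SE, 1.19- to 1.81-fold, adjusted p = 0.0206) in wild type, and 0.26 ± 0.14 (0.972- to 1.48-fold, adjusted p = 0.368) in knockout, which did not pass. The wild-type call rested on few arrays: without wild-type vehicle replicate 2 the change was 0.40 (adjusted p = 0.0705), and without wild-type dexamethasone replicate 2 it was 0.47 (adjusted p = 0.0925).

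Gbe1 and Ugp2, the branching enzyme and the source of UDP-glucose, did not pass the test in either genotype. Gbe1 averaged 9.43 ± 0.15 in knockout dexamethasone livers and 9.41 ± 0.10 in knockout vehicle livers, and 9.64 ± 0.12 in wild-type dexamethasone livers against 9.48 ± 0.14 in wild-type vehicle livers (SD, n = 3 each). The intervals of its fold change ran from 0.857 to 1.19 in knockout and from 0.942 to 1.31 in wild type. Ugp2 averaged 8.83 ± 0.19 in knockout dexamethasone livers and 8.94 ± 0.04 in knockout vehicle livers, and 9.04 ± 0.22 in wild-type dexamethasone livers against 9.04 ± 0.13 in wild-type vehicle livers (SD, n = 3 each). Its intervals ran from 0.768 to 1.12 and from 0.828 to 1.21.

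On the side of breakdown, Pygl averaged 9.99 ± 0.05 in knockout dexamethasone livers and 10.19 ± 0.08 in knockout vehicle livers, where the 3 treated livers (9.93 to 10.02) lay below the 3 vehicle livers (10.11 to 10.27). The change of -0.20 ± 0.12 did not pass (SE, adjusted p = 0.403). In wild type Pygl averaged 10.12 ± 0.19 under dexamethasone and 10.13 ± 0.19 under vehicle (SD, n = 3 each), a difference of -0.01 ± 0.12 with an interval of 0.834- to 1.18-fold.

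Phka2 had log2 levels of 6.84, 6.83 and 6.38 in knockout dexamethasone livers, against 7.28, 6.96 and 7.11 in knockout vehicle livers. In wild-type dexamethasone livers it had 6.74, 6.82 and 6.71, against 7.23, 6.89 and 7.14 in wild-type vehicle livers. Every treated liver was below every vehicle liver of its genotype. The changes of -0.43 ± 0.14 in knockout (adjusted p = 0.0710) and -0.33 ± 0.14 in wild type (adjusted p = 0.150) did not pass one by one.

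Gsk3b averaged 7.24 ± 0.10 in knockout dexamethasone livers and 7.19 ± 0.16 in knockout vehicle livers, and 7.27 ± 0.13 in wild-type dexamethasone livers against 7.16 ± 0.09 in wild-type vehicle livers (SD, n = 3 each). Its changes of 0.05 ± 0.11 (0.884- to 1.22-fold) and 0.10 ± 0.11 (0.914- to 1.26-fold) did not pass, and the groups overlapped. Over the 9 members, treated and vehicle livers did not overlap for 5 genes in knockout (Ppp1r3b, Ppp1r3c, Gys2, Pygl and Phka2), where 24.3% of all genes did not overlap. In wild type they did not overlap for 4 (the same without Pygl), where 27% of all genes did not.

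**Figure D2:**
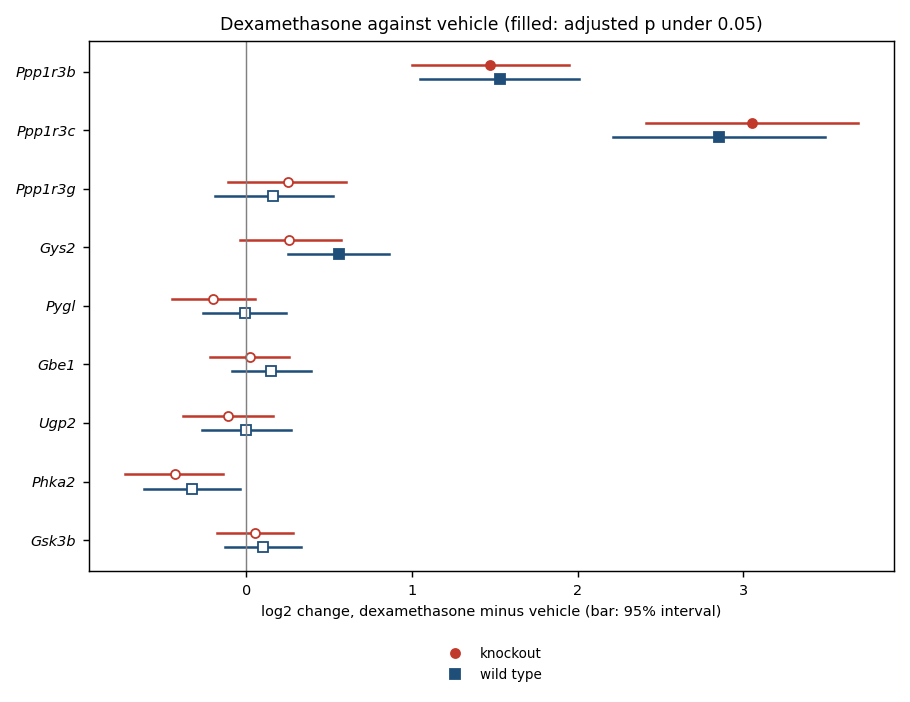
Log2 change, dexamethasone minus vehicle, of each glycogen gene in knockout (circles) and wild type (squares), with 95% intervals and filled symbols where the adjusted p was under 0.05. Ppp1r3c and Ppp1r3b stand to the right in both genotypes, at 3.05 and 1.47 in knockout and at 2.85 and 1.53 in wild type, and Gys2 is filled in wild type only by this threshold, a difference between genotypes that did not pass its own test.

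Averaged over the genotypes, which sets 6 treated against 6 vehicle livers with genotype in the fit, 3 members were higher and 1 lower, where 7.29% of all tested genes were higher and 9.94% lower. Ppp1r3c changed by 2.95 ± 0.21 (adjusted p = 5.10e-07) and Ppp1r3b by 1.5 ± 0.16 (adjusted p = 1.65e-05). Gys2 rose by 0.41 ± 0.10 (SE, 1.33-fold, adjusted p = 0.0109) and Phka2 fell by 0.38 ± 0.10 on the log2 scale (SE, adjusted p = 0.0129). The other 5 members did not pass.

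Values on the 8 arrays without pancreas transcripts were set beside these, with the reservation that wild-type vehicle then holds 1 array, assumed to vary like the others. Ppp1r3c changed by 2.94 in knockout (adjusted p = 0.00122) and by 2.54 in wild type (adjusted p = 0.0217). Ppp1r3b changed by 1.39 in knockout (adjusted p = 0.00569) and by 1.91 in wild type (adjusted p = 0.00957). The Gys2 change in wild type was 0.33 ± 0.18 (adjusted p = 0.46), and its average over genotypes was 0.32 (adjusted p = 0.127). The averaged Phka2 change was -0.40 (adjusted p = 0.111), as large as on all arrays but no longer called. Whether the pancreas transcripts have a part in the Gys2 change was not tested.

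**Figure D3:**
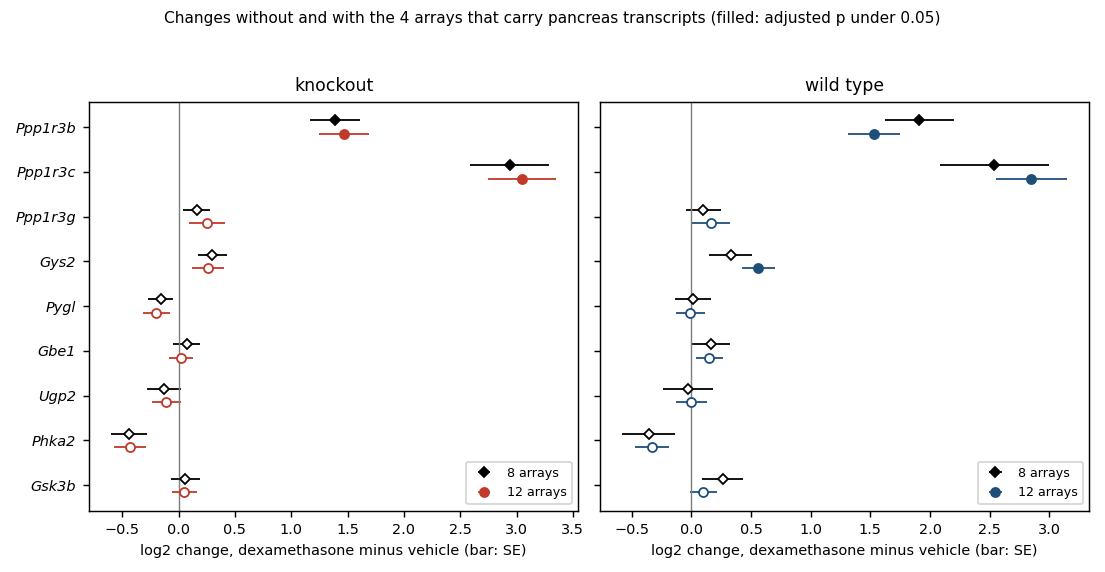
Log2 change of each glycogen gene, dexamethasone minus vehicle, on all 12 arrays beside the 8 arrays without pancreas transcripts, in knockout and in wild type. Ppp1r3b and Ppp1r3c lie between 1.39 and 3.05 throughout, and Gys2 in wild type lies at 0.33 on the 8 arrays against 0.56 on all 12.

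The second question was whether Hdac6 loss changed these genes. Of the 9 members 0 were called under vehicle, where 0.101% of all tested genes were called, and 0 under dexamethasone, where 0.0279% were called. Averaged over treatments 0 were called, against 0.0503% of all genes. At an unadjusted p under 0.05 limma gave 1288, 1566 and 1798 genes in these 3 comparisons. All changes here are knockout minus wild type.

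Gys2 showed the widest gap between genotypes. Under dexamethasone it had 10.11, 10.19 and 10.42 in knockout livers, against 10.68, 10.95 and 10.74 in wild-type livers, so the groups did not overlap. This held for 1 of the 9 members, where 14% of all genes did not overlap. The difference was -0.54 ± 0.14 (SE, 95% interval -0.85 to -0.24) with an unadjusted p of 0.00196 and an adjusted p of 0.270, and it did not pass. On the 8 arrays it was -0.57 ± 0.13 (adjusted p = 0.417). Under vehicle the difference was -0.25 ± 0.14 (adjusted p = 0.756), with overlapping livers. That value depended on the arrays used: it lay between -0.41 and -0.12 with 1 array left out, and on the 8 arrays it was -0.54 ± 0.18 (adjusted p = 0.855), close to the value under dexamethasone.

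The other members lay closer. Under dexamethasone Gbe1 differed by -0.21 ± 0.11 (adjusted p = 0.630), Ugp2 by -0.21 ± 0.13 (adjusted p = 0.676) and Pygl by -0.13 (adjusted p = 0.787). The targeting subunits that responded most to dexamethasone differed between the treated genotypes by -0.11 ± 0.22 for Ppp1r3b (adjusted p = 0.920) and by 0.05 ± 0.30 for Ppp1r3c (adjusted p = 0.978). Phka2 differed by -0.07 ± 0.14 and Gsk3b by -0.02 ± 0.11. Under vehicle Ppp1r3g differed by -0.22 (adjusted p = 0.817) and Ppp1r3c by -0.15 (adjusted p = 0.944). None of these passed, and these vehicle values changed sign with the arrays used: Ppp1r3g differed by 0.04 on the 8 arrays, and Ppp1r3c by 0.17 without knockout vehicle replicate 2.

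**Figure D4:**
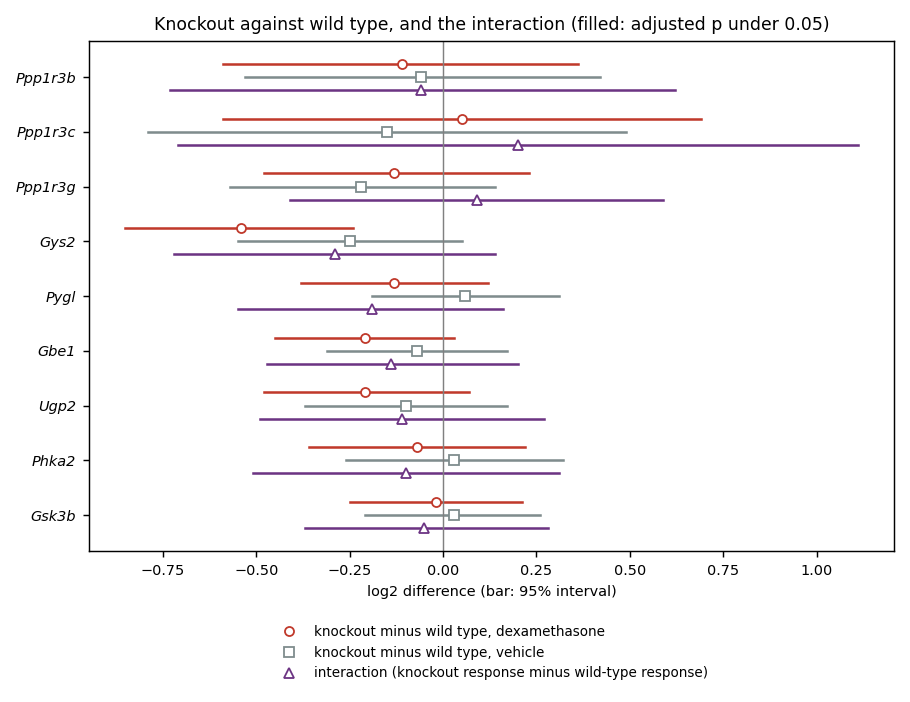
Log2 difference between genotypes, knockout minus wild type, of each glycogen gene under dexamethasone and under vehicle, with the difference of the dexamethasone changes beside them and 95% intervals. Gys2 under dexamethasone, at -0.54, is the member farthest from 0 relative to its interval, and no symbol is filled because no adjusted p was under 0.05.

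The test of the difference between the dexamethasone changes of the genotypes, knockout minus wild type, called 0 of 9 members and 0% of all genes, while 1109 genes had an unadjusted p under 0.05 in limma. The interval allowed sizeable differences for the variable genes: the knockout change of Ppp1r3c could be 0.612 to 2.15 times that in wild type, and that of Ppp1r3b 0.602 to 1.53 times. For Gys2 the difference was -0.29 (interval -0.72 to 0.14, adjusted p = 0.862), so its call in wild type alone is not shown to differ from knockout. On the 8 arrays the Gys2 difference was -0.02 ± 0.22 (adjusted p = 0.994). For Gsk3b the interval was 0.771 to 1.21 times.

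Around the 9 members, 55 other genes of the pathway or near it were listed and 49 could be tested. Pgm2 and Pgm3 on these lists act mainly outside glycogen. In knockout livers dexamethasone raised 3 and lowered 2 of the 49, where 4.38% of all genes rose and 3.92% fell. In wild-type livers it raised 2 and lowered 4, where 4.57% rose and 6.95% fell. Averaged over genotypes 3 rose and 7 fell, where 7.29% and 9.94% of all genes did. These counts lie near the shares over all genes. The median change over the 49 was -0.01 in each genotype. No gene of the lists was called between genotypes or for the difference of the dexamethasone changes. Ppp1r3a, the targeting subunit of muscle, did not pass the filter, and the other listed genes without a test were not analysed here.

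Dexamethasone raised 4.38% and lowered 3.92% of all genes in knockout, and raised 4.57% and lowered 6.95% in wild type. Of the other phosphatase subunits and regulators, 0 of 9 were called in either genotype. Ppp1r3e, another glycogen-targeting subunit, came nearest in wild type, at 5.59, 5.51 and 5.88 in dexamethasone livers against 5.0, 5.48 and 5.29 in vehicle livers. Its change there was 0.40 ± 0.13 (adjusted p = 0.0587), and 0.11 ± 0.13 in knockout (adjusted p = 0.765). For the catalytic subunit Ppp1cc the probe set used averaged 8.30 under dexamethasone and 8.33 under vehicle in wild type, and 8.47 and 8.28 in knockout. A dimmer probe set of Ppp1cc, not used here, averaged 5.33 and 4.33 in wild type, and 5.67 and 5.22 in knockout. That probe set was not tested by itself. Of the other phosphorylase kinase subunits and calmodulins, 0 of 6 were called in either genotype, beside the same shares over all genes. Their differences lay between -0.21 and 0.22. Phkg1, a catalytic gamma subunit, had the smallest p of that list, with a difference of 0.17 ± 0.10 in wild type (adjusted p = 0.323). Its mean signals there, 2.33 under dexamethasone and 2.16 under vehicle, lay near the filter level, the 20th percentile of the arrays (2.17 to 2.23).

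In the list of other synthesis genes, 2 of 7 rose and 0 fell in knockout, where 4.38% of all genes rose and 3.92% fell. In wild type 1 rose and 1 fell, where 4.57% of all genes rose and 6.95% fell. Pgm3 had 7.55, 8.11 and 7.81 in knockout dexamethasone livers, against 6.23, 6.29 and 6.22 in knockout vehicle livers. In treated wild-type livers it had 7.63, 7.70 and 7.62, against 5.89, 6.19 and 6.28 in wild-type vehicle livers. Its changes were 1.58 ± 0.13 (adjusted p = 7.12e-06) in knockout and 1.53 in wild type (adjusted p = 9.74e-06). Pgm3 encodes phosphoacetylglucosamine mutase, which serves hexosamine synthesis rather than glycogen. Pgm2, which acts mainly on pentose phosphates, rose by 0.56 ± 0.13 on the log2 scale in knockout (adjusted p = 0.0128), and its difference in wild type was 0.21 ± 0.13 (adjusted p = 0.359). The knockout call of Pgm2 was lost without knockout dexamethasone replicate 1 (0.48, adjusted p = 0.0522), without knockout vehicle replicate 3 (0.49, adjusted p = 0.0642) and on the 8 arrays (0.49, adjusted p = 0.0698). Stbd1, a protein that tethers glycogen to membranes, had 5.19, 5.21 and 4.98 in wild-type dexamethasone livers, against 5.79, 6.15 and 5.98 in wild-type vehicle livers. It fell by 0.85 ± 0.16 there (adjusted p = 0.00396), and its change in knockout was -0.16 ± 0.16 (adjusted p = 0.712), with a difference between genotypes of 0.69 ± 0.23 that did not pass (adjusted p = 0.736). Averaged over genotypes 2 of the 7 rose (Pgm2 and Pgm3) and 2 fell, where 7.29% of all genes rose and 9.94% fell. Those that fell were Stbd1 and Gyg, which primes new glycogen (-0.24 ± 0.08, adjusted p = 0.0493). On the 8 arrays neither averaged change was called for Gyg (-0.31) and Pgm2 (0.26). The Gyg call was also lost with arrays centred on their median (adjusted p = 0.0519) or quantile normalised (0.0559). It was lost too with an intensity trend in the variance prior (0.0644) and with the pancreas marker level as a covariate (0.17). Leaving out most single arrays had the same effect, up to 0.122 without knockout vehicle replicate 3.

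In the list of other breakdown genes 0 of 5 were called in knockout, where 4.38% of all genes rose and 3.92% fell. In wild type 1 of 5 fell, where 6.95% of all genes fell. Pygb, the brain form of phosphorylase, had 4.0, 3.75 and 3.85 in wild-type dexamethasone livers, against 4.88, 4.34 and 4.28 in wild-type vehicle livers, and fell by 0.64 ± 0.15 on the log2 scale (adjusted p = 0.0120). On the 8 arrays its change was -0.41 (adjusted p = 0.303); its highest value, 4.88, was from a liver with pancreas transcripts. Without wild-type dexamethasone replicate 2 the Pygb change was -0.58 (adjusted p = 0.0546). The liver with its highest value, wild-type vehicle replicate 1, also had raised muscle markers. Stbd1 on the 8 arrays had a difference of -0.79 (adjusted p = 0.0508).

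Of the 18 kinases, receptors and signalling proteins tested, 2 fell in each genotype and 0 rose, where 3.92% of all genes fell in knockout and 6.95% in wild type. Averaged over genotypes 4 fell, where 9.94% of all genes did: Irs1, Adra1b, Prkar2a and Gcgr, the glucagon receptor (-0.30 ± 0.08, adjusted p = 0.0236). On the 8 arrays the averaged calls of Gcgr (-0.29), Adra1b (-0.36) and Prkar2a (-0.28) were lost. With the pancreas marker level as a covariate Prkar2a (adjusted p = 0.0522) and Gcgr (0.0728) lost them too. The same held without several single arrays (0.0519 to 0.0614 for Prkar2a, 0.0534 to 0.0628 for Gcgr). Irs1, an adaptor of the insulin receptor, had 4.87, 5.42 and 5.97 in knockout dexamethasone livers, against 7.07, 6.97 and 6.88 in knockout vehicle livers. In wild-type dexamethasone livers it had 6.19, 6.03 and 5.97, against 6.69, 6.60 and 7.11 in wild-type vehicle livers. The groups did not overlap in either genotype. It fell by 1.55 ± 0.21 on the log2 scale in knockout (adjusted p = 4.12e-04) and by 0.74 ± 0.21 in wild type (adjusted p = 0.0418). The wild-type call was lost on the 8 arrays (-1.0, adjusted p = 0.195) and when its probe sets were averaged (-0.37, adjusted p = 0.105); the other probe set lay at the dim level of 2.09 to 2.24 in all groups. Adra1b, an adrenergic receptor that drives glycogen breakdown, fell by 0.45 ± 0.11 on the log2 scale in knockout (adjusted p = 0.0226), with a difference of -0.24 ± 0.11 in wild type (adjusted p = 0.2). Prkar2a, a regulatory subunit of protein kinase A, had a difference of -0.16 ± 0.11 in knockout (adjusted p = 0.549) and fell by 0.42 ± 0.11 in wild type (adjusted p = 0.0283). The differences between genotypes did not pass (adjusted p = 0.887 for Adra1b and 0.852 for Prkar2a). Neither was called within 1 genotype on the 8 arrays. Irs2, another insulin receptor adaptor, had 5.01, 4.73 and 4.38 in knockout dexamethasone livers, against 5.78, 5.52 and 5.54 in knockout vehicle livers, and these did not overlap. Its difference there was -0.91 ± 0.29 (adjusted p = 0.0745), which did not pass, and -0.03 ± 0.29 in wild type (adjusted p = 0.964). On the 8 arrays Irs2 was called lower in knockout (-0.95 ± 0.18, adjusted p = 0.0174), with 0.16 ± 0.25 in wild type (adjusted p = 0.859) and a difference between genotypes that did not pass (-1.10 ± 0.31, adjusted p = 0.759). Over all settings its adjusted p in knockout ran between 0.00573 and 0.248. Adra1b also lost its knockout call without knockout dexamethasone replicate 2 or 3 or knockout vehicle replicate 1 or 3 (adjusted p between 0.0682 and 0.101). Prkar2a lost its wild-type call without wild-type dexamethasone replicate 2 or 3 or wild-type vehicle replicate 1 or 3 (0.0707 to 0.113). Irs1 in wild type lost its call without any of 5 of the 6 wild-type arrays, wild-type vehicle replicate 2 being the exception, and without knockout dexamethasone replicate 2 or any knockout vehicle array (adjusted p between 0.0531 and 0.144).

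Among the genes of glucose entry and exit, 1 of 4 rose in each genotype. Over all genes 4.38% rose in knockout and 4.57% in wild type. The listed gene that rose was Slc37a4, the transporter that carries glucose 6-phosphate into the endoplasmic reticulum. It had 10.36, 10.48 and 10.55 in knockout dexamethasone livers, against 9.48, 9.51 and 9.65 in knockout vehicle livers, a change of 0.92 ± 0.09 (adjusted p = 3.29e-05). Wild-type livers given dexamethasone had 10.77, 10.79 and 10.57, against 9.96, 9.90 and 9.99 in wild-type vehicle livers, a change of 0.76 ± 0.09 (adjusted p = 1.56e-04). Treated and vehicle livers were far apart in both genotypes. G6pc, the catalytic subunit of glucose 6-phosphatase, had differences of -0.29 ± 0.33 in knockout (adjusted p = 0.757) and 0.89 ± 0.33 in wild type (adjusted p = 0.108), which did not pass. Wild-type vehicle replicate 2, a liver with pancreas transcripts, held its lowest value, 8.36. Without that array the wild-type difference was 0.36 (adjusted p = 0.247), without wild-type vehicle replicate 3 it was 1.16 (adjusted p = 0.0476), and on the 8 arrays it was 0.44 ± 0.21 (adjusted p = 0.370).

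**Figure D5:**
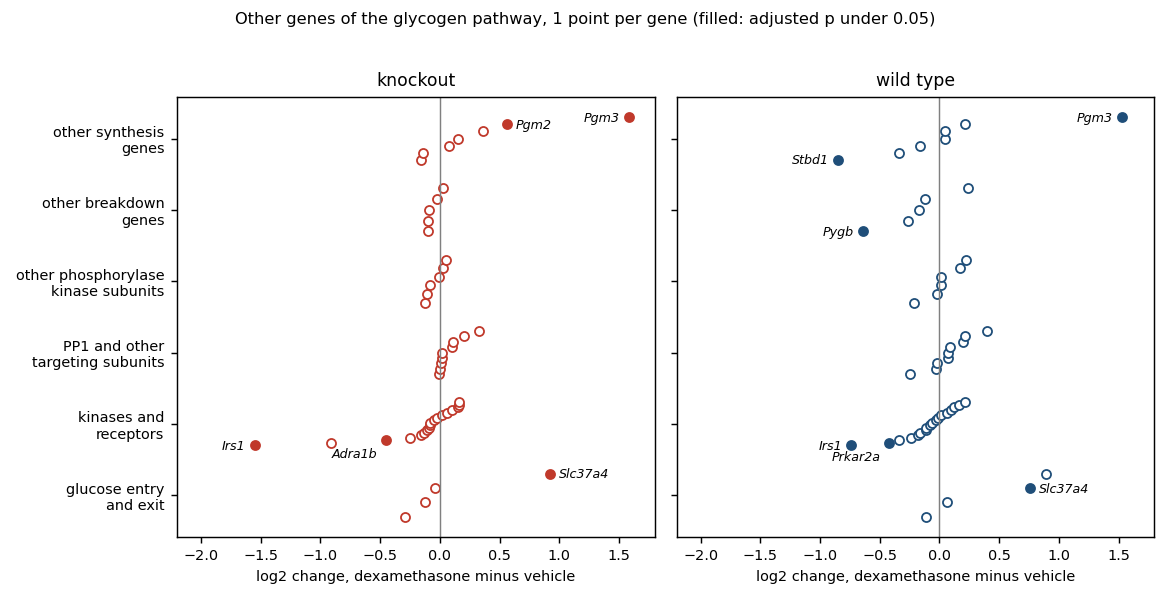
Log2 change, dexamethasone minus vehicle, of 49 other genes of the glycogen pathway or near it, by list, in knockout and in wild type. Each gene is 1 point, filled where the adjusted p was under 0.05. Pgm3 and Slc37a4 are filled on the right in both panels and Irs1 on the left in both, and the phosphatase and phosphorylase kinase lists hold no filled point.

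The genes whose profile over the 12 arrays lay nearest to a member were found by the root mean square difference of log2 values after each gene's own mean was subtracted. Nearest to Ppp1r3b, whose profile had an SD of 0.833, were Fmo5 (0.188), Gpat4 (0.195) and Mpzl3 (0.25). Nearest to Ppp1r3c (SD 1.59) were Tcim (0.38), Arrdc2 (0.432) and Plin4 (0.459). Nearest to Gys2 (SD 0.347) were Yjefn3 (0.125), Paqr4 (0.161) and Ddhd2 (0.162), and nearest to Ppp1r3g (SD 0.243) were Zfp334 (0.117), Daam2 (0.121) and Olfr657 (0.128). For Ppp1r3g these distances are smaller than the SD between arrays of a group, which was 0.14 to 0.38.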

How the data were processed

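Liver RNA of 12 mice was measured on 12 arrays, in 4 groups of 3 taken from the sample titles. The authors deposited log2 values for 34760 probe sets. The submitters' processing notes list R 2.10.0 and affy as tools. The background correction, normalisation and genome build are not given in the sources used here. Probe sets with 1 symbol in the platform annotation numbered 21640 (1321 had several and 11799 none), and the probe set of highest mean stood for each of 19937 genes. A gene was kept if it exceeded the 20th percentile of its array on at least 3 of 12 arrays, which left 17904. All 12 arrays were fitted by limma 3.58.1 in R 4.3.3, leaving 8 residual and 5.07 prior degrees of freedom, and 7 comparisons were adjusted by Benjamini-Hochberg over all 17904 genes each, with a threshold of 0.05. Intervals are 95%. Precision is limited by the number of arrays. The fit was tested on simulated data.

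The 9 members and the lists were chosen with earlier results of these data known. All members were named, and from each list up to 4 genes with the smallest p in a dexamethasone comparison within 1 genotype or in the interaction, plus genes behind small counts of calls. Alternatives covered the filter, scaling, weights, variance prior, probe sets, arrays left out and a replicate block.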

Additional observations from a re-analysis of the deposited data

How the results depend on the processing

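Each member's changes were recomputed under 11 other settings and with each of the 12 arrays left out. Of 1422 recomputed values 1343 kept their direction and side of the threshold, 71 changed sign, none of them called, and 8 lost a call. The calls of Ppp1r3b and Ppp1r3c under dexamethasone held in both genotypes under every setting; with 1 array left out their changes ran between 1.32 and 1.70 in knockout and 1.32 and 1.76 in wild type for Ppp1r3b, and between 2.73 and 3.48 and between 2.62 and 3.01 for Ppp1r3c. The Gys2 change in wild type (0.40 to 0.68 with 1 array left out) also lost its call with the pancreas marker level as a covariate (0.49, adjusted p = 0.0707) and with only the groups compared (0.56, adjusted p = 0.0567); its averaged change was 0.36 with the covariate (adjusted p = 0.0501). Without the 4 arrays with pancreas transcripts, 2 members were called for the average over genotypes. With each array centred on its median, the split of all calls in wild type was 657 higher and 1551 lower, against 819 and 1245 as deposited. The cause of these shifts was not tested.

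The labels number replicates 1 to 3 in every group but name different animals. Same-numbered arrays had deviations correlated between -0.537 and 0.356, and 3 of 18 pairs were over 0.1. Among arrays of different number 11 of 36 pairs were over 0.1. Both extremes of the same-numbered pairs involve knockout vehicle replicate 3, an array with pancreas transcripts. The values do not show a pairing by number, but with 3 arrays per group they cannot exclude it. With a replicate block the members called were the same as without it in every comparison. 1 of 12 arrays was nearest to its own number.

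Signs turned for values that were not called, as follows. With arrays centred on their median, knockout against wild type gave 0 for Phka2 and -0.01 for Gsk3b under vehicle and 0.02 for Gsk3b under dexamethasone, and the interaction 0.02 for both Ppp1r3b and Gsk3b. Quantile normalisation gave 0.01 for Ugp2 under dexamethasone in wild type and -0.01 for Gsk3b between genotypes on average. Array weights gave -0.02 for Gbe1 under dexamethasone in knockout and 0.07 for Ppp1r3b between genotypes under vehicle. The covariate gave 0.01 for Ugp2 in wild type, 0.04 for Ppp1r3b under vehicle and -0.03 for Ppp1r3c under dexamethasone between genotypes. Without the 4 arrays the Pygl difference was 0.01 in wild type, and between genotypes the values were 0.45 for Ppp1r3b, 0.04 for Ppp1r3g, -0.04 for Pygl and -0.02 for Phka2 under vehicle, 0.09 for Ppp1r3g under dexamethasone, and 0.19 for Ppp1r3b and 0.06 for Ppp1r3g on average.

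With 1 array left out, the dexamethasone change lay between -0.07 and 0.08 for Gbe1 and between -0.03 and 0.13 for Gsk3b in knockout, and in wild type between -0.06 and 0.28 for Ppp1r3g, -0.12 and 0.06 for Pygl and -0.09 and 0.12 for Ugp2 (-0.10 and 0.01 for Ugp2 on average). The difference between genotypes lay, under vehicle, under dexamethasone and on average, between -0.05 and 0.11, -0.09 and 0.04, and -0.04 and 0.04 for Gsk3b; between -0.07 and 0.11, -0.15 and 0.08, and -0.07 and 0.06 for Phka2; and between -0.58 and 0.17, -0.06 and 0.13, and -0.26 and 0.11 for Ppp1r3c. For Ppp1r3b it lay between -0.29 and 0.17 under vehicle and -0.20 and 0.03 on average, for Pygl between -0.04 and 0.14 and between -0.09 and 0.02, and for Ppp1r3g between -0.25 and 0.09 under dexamethasone. The interaction lay between -0.13 and 0.03 for Gsk3b, -0.18 and 0.05 for Phka2, -0.29 and 0.17 for Ppp1r3b, -0.12 and 0.63 for Ppp1r3c and -0.03 and 0.31 for Ppp1r3g. The Gys2 difference between genotypes under dexamethasone lay between -0.63 and -0.46 (adjusted p between 0.124 and 0.617).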
